A study of Mus musculus with 19 samples.

Results

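The EGF receptor family and its ligands, together with MET, were examined for YAP and TEAD binding in mouse liver by chromatin immunoprecipitation followed by sequencing (ChIP-seq). The 10 genes comprised 5 receptors, Egfr, Erbb2, Erbb3, Erbb4 and Met, and 5 ligands, Areg, Ereg, Btc, Hbegf and Tgfa. Each was taken with 20 kb on either side of its annotated body (GENCODE, NCBIM37, the assembly also called mm9), and all peaks that overlapped this window were collected from 6 peak lists. This gave 0 of 156 YAP peaks in WT livers, 0 of 110 after 3 d of YAP induction and 6 of 1478 after 7 d. For TEAD it gave 12 of the 5695 peaks called in WT, 62 of the 36446 at 3 d and 78 of the 38984 at 7 d. The genes were chosen by name, with earlier results of these data known, and 8 of the 10 had a peak in at least 1 list.

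The 19 libraries were from whole liver of C57BL/6 mice and formed 6 groups, each merged into 1 peak list. All mice carried ROSA26-rtTA-IRES-EGFP, a doxycycline-controlled transactivator that requires Cre, and according to the study's methods the Cre was driven by the albumin promoter, which directs it to hepatocytes. WT livers lacked the tetYAP transgene and had received doxycycline food for 7 days. Induced livers carried tetYAP, which encodes the activated mutant YAP S127A, and had received doxycycline food for 3 days (3 d) or 7 days (7 d). The TEAD group at 7 d comprised 4 replicates and every other group 3, and the labels gave no ages. According to the study's methods the TEAD antibody also recognises TEAD1 and TEAD3, so a TEAD peak was not assigned to a single paralogue. The study's methods also mention WT liver peaks taken from published data, while the labels list WT samples of this series, so it was not settled which WT lists that statement covers. The WT values below are from the lists as labelled. Because the replicates were merged, no spread between animals could be computed and no test between conditions was possible. Intervals below cover counting error only. In whole tissue, a stronger peak in each cell and a larger share of cells with the peak cannot be told apart.

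The deposited lists rested on 34260362 to 54661175 tags for YAP and 35168765 to 55032002 for TEAD, all against the same control of 167176362 tags. The TEAD lists held 35168765 tags in WT, 55032002 at 3 d and 38523843 at 7 d. The pileup of a peak is the number of extended fragments that cover its summit, and fold enrichment is that pileup over the local background. Pileups below are raw unless said to be scaled to tags. A raw TEAD pileup that is alike at 3 d and 7 d is therefore higher per tag at 7 d. Fragments were extended to 400 bp for TEAD in WT but to 207 bp at 3 d and 206 bp at 7 d. Pileups of WT and induced livers were therefore not divided by each other. They stand side by side below, with ranks at only some sites. A higher pileup after induction than in WT does not by itself measure more binding. A peak list does not measure expression, so the tissue label could not be checked against RNA. The hepatocyte gene Alb had 4, 19 and 22 TEAD peaks in WT, at 3 d and at 7 d, the hepatocyte gene Apoa1 had 1, 11 and 10, and the bile duct marker Krt19 had none in any list.

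EGFR, ERBB2, ERBB3 and ERBB4 are receptor tyrosine kinases that work as dimers. ERBB2 has no known ligand of its own, and ERBB3 has little kinase activity and depends on its partner. Their ligands are made as membrane proteins and released by cleavage. Amphiregulin (Areg) and TGF-alpha (Tgfa) bind EGFR, whereas epiregulin (Ereg), betacellulin (Btc) and HB-EGF (Hbegf) bind EGFR and ERBB4. MET is the receptor for hepatocyte growth factor. In liver, EGFR and MET drive hepatocyte proliferation during regeneration. YAP is a coactivator without a DNA-binding domain that reaches chromatin mainly through TEAD proteins, which recognise sequences with the core GGAATG.

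The 6 YAP peaks lay in the windows of Egfr, Erbb3, Erbb4, Met and Tgfa. To show what these sites look like, the 201 bases centred on the summit of the best-ranked YAP peak of each gene at 7 d were read from the plus strand of mm9, with every GGAATG, or CATTCC on the other strand, in capitals. They correspond to chr6:17435815-17436015 for Met, chr1:68548117-68548317 for Erbb4, chr10:128043690-128043890 for Erbb3, chr6:86126428-86126628 for Tgfa and chr11:16638999-16639199 for Egfr. The Met and Erbb4 windows were intronic, and the other windows were intergenic.
Met, YAP summit: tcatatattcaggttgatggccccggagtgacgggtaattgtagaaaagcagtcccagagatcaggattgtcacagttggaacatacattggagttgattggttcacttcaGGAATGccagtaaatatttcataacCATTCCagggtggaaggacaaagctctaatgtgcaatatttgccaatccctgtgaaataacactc
Erbb4, YAP summit: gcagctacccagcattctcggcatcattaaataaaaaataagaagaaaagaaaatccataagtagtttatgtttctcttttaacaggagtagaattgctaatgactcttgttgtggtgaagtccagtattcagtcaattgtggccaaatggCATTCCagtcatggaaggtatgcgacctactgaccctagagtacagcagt
Erbb3, YAP summit: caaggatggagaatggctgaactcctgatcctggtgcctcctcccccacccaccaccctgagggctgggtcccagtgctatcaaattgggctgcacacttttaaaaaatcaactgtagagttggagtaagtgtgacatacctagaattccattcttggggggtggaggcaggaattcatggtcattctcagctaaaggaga
Tgfa, YAP summit: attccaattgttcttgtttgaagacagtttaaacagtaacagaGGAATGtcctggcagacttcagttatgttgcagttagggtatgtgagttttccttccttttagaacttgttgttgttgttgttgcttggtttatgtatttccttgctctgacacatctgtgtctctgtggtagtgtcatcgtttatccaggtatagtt
Egfr, YAP summit: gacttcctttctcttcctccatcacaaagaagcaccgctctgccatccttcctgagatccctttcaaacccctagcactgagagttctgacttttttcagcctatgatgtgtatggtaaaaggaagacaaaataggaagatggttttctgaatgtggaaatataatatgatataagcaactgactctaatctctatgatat

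Met had 2 copies of the core within this window, Erbb4 and Tgfa had 1 each, and Erbb3 and Egfr had none. The other Erbb4 YAP peak, not printed, had 2. At Egfr the TEAD summit at 7 d lay 222 bp from the YAP summit, and the 201 bases around it, chr11:16639221-16639421, held 2 copies. This sequence is shown because it carries the TEAD peak of highest pileup among all 10 genes, and it was added after the values were seen. The sequence of chr6:86132602-86132802, upstream of Tgfa, is shown for contrast as the TEAD site of highest pileup at which no YAP peak was called. It held no copy.
Egfr, TEAD summit: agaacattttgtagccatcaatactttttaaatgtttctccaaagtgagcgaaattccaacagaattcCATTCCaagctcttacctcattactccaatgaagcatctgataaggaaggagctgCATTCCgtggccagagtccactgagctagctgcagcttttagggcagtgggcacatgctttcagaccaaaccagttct
Tgfa, TEAD summit without YAP: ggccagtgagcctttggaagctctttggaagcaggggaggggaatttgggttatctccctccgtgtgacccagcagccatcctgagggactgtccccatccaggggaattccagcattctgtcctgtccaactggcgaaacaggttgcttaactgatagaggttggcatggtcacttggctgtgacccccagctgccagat

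Across the windows, the core was present in the 201 bases centred on the summit, 100 on either side, in 33 of 78 TEAD peaks at 7 d, or 42.3% (Wilson 95% interval 32.0% to 53.4%), against 35.2% of the whole list. The share was 23 of 62, or 37.1%, at 3 d against 30.4%, and 8 of 12, or 66.7%, in WT against 48.6%. At YAP peaks it was 4 of 6 against 59.0%. For GGAATG each whole-list share lay within the interval of the corresponding share of these genes. The shorter core GGAAT, searched after the data had been seen, was present in 53 of 78 TEAD peaks at 7 d, or 67.9% (57.0% to 77.3%), against 62.7%. At 3 d it was present in 45 of 62, or 72.6% (60.4% to 82.1%), against 55.7%, which lies below that interval. The Erbb3 YAP window held 2 copies of GGAAT and the Tgfa window without YAP held 3, while the Egfr window at the YAP summit held none. The AP-1 motif TGANTCA, with N for any base, was found at none of the 6 YAP peaks, against 10.6% of the YAP list. It was found at 4 of 78 TEAD peaks at 7 d, or 5.13% (2.01% to 12.5%), against 8.71%. At 3 d it was found at 0 of 62 (0% to 5.83%), against 6.92%, which lies above that interval. The FOXA motif TGTTTAC and the HNF4A motif CAAAGTCCA were also searched, and each whole-list share lay within the interval. The intervals were not adjusted for the number of motifs and lists searched.

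YAP peaks were called at these genes only in the list at 7 d. At 7 d, 5 of the 10 genes had a YAP peak, against 6.33% of all 22380 protein-coding genes. In WT and at 3 d none did, against 0.139% and 0.192%. Window length matters for such counts. All 4 genes with windows over 100 kb (Egfr, Erbb4, Met and Tgfa) had a YAP peak at 7 d, against 12.4% of genes with windows of that size. Of the 6 genes with shorter windows only Erbb3 had one, against 4.98%. No YAP peak lay within a promoter, taken as 2000 bp upstream to 1000 bp downstream of any annotated start, and 1.04% of all genes had a YAP peak there at 7 d.

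TEAD peaks were called around all 5 receptors already in WT and were more numerous after induction. Of the 10 genes, 7 had a TEAD peak in WT, 8 at 3 d and 7 at 7 d, against 25.4%, 65.2% and 66.5% of all genes. At 7 d all 4 genes with windows over 100 kb had a TEAD peak, against 79.0% of genes with windows of that size. Of the 6 with shorter windows 3 had none, against 36.3%. Shares by window length were not computed for WT and 3 d. All 5 receptors had a TEAD peak in each of the 3 TEAD lists. More TEAD peaks were called at 7 d than in WT at 7 of the 10 genes, against 63.5% of all genes. The numbers of peaks depend on how many were called in each list. When only the strongest 5695 peaks by pileup were kept in each TEAD list, the windows held 12 peaks in WT, 18 at 3 d and 18 at 7 d.

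**Figure D1:**
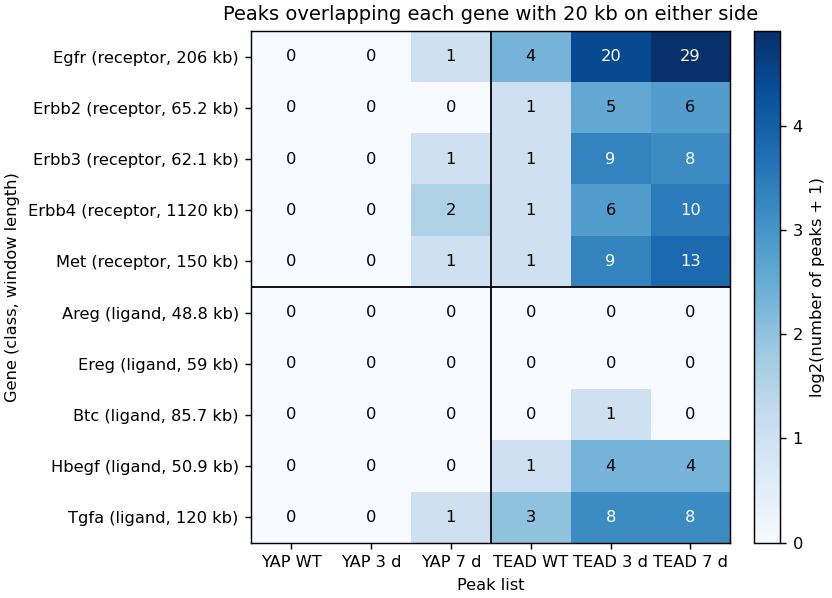
Number of peaks that overlapped each gene window (rows, with class and window length in kb) in the 6 peak lists (columns), with colour on a log2 scale. YAP peaks appear at 7 d only, Egfr has the most TEAD peaks at 7 d with 29, and the rows of Areg and Ereg are 0 throughout.

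Egfr (chr11:16652206-16818161, plus strand) had the most TEAD peaks of the 10 genes. They numbered 4 in WT, 20 at 3 d and 29 at 7 d, and at 7 d 99.9% of all genes had fewer. Scaled to window length this was 14.1 peaks per 100 kb at 7 d, more than in 97.4% of genes. The strongest lay 12.9 kb upstream of the gene start, in intergenic sequence. Its pileup was 43 in WT, 223 at 3 d and 250 at 7 d. It was ordinary among WT peaks, at rank 2181 of 5695, and among the strongest after induction, at rank 128 of 36446 and 101 of 38984 by pileup, the latter being rank 62 by fold enrichment. A YAP peak at 7 d (chr11:16639031-16639299, 13.1 kb upstream) overlapped it. That YAP peak was one of the weakest of its list, with a pileup of 21, a 4.58-fold enrichment and rank 1390 of 1478.

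The other Egfr sites were spread over the upstream region and the introns. The strongest TEAD peak in WT lay 17.2 kb into the gene, in an intron, with a pileup of 64 in WT, 155 at 3 d and 131 at 7 d. Scaled to the tags of each list, its ratio of 7 d to 3 d was 1.21 (0.949 to 1.53). At 9.62 kb upstream a peak of pileup 79 at 3 d and 121 at 7 d had no counterpart in WT. Of the 29 peaks at 7 d, 24 had their summit within the gene, and most were weak, with a median pileup of 27 and 3 in the top 10% of the list. The small gene Gm17664 lies within Egfr, and its start was the nearest one for 18 of the 29 peaks at 7 d, among them the one at 17.2 kb. Of the 30 Egfr sites seen in any TEAD list, 4 were called in all 3 lists, 14 at both 3 d and 7 d, 10 at 7 d only and 2 at 3 d only.

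Erbb2 (chr11:98273784-98299030, plus strand) had a single site of its own, at the promoter. The TEAD pileup there was 61 in WT, 74 at 3 d and 75 at 7 d, with summits 56 bp to 102 bp upstream of the start. The site was among the stronger ones in each list, at the top 13.9%, 11.2% and 13.2% by pileup. No TEAD summit lay within the Erbb2 gene body. The other 5 peaks at 7 d were downstream, 4 of them nearest the start of Grb7, which encodes an adaptor that binds ERBB2, and 1 nearest 1810046J19Rik. The strongest of those nearest Grb7 had a pileup of 76 at 3 d and 74 at 7 d. No YAP peak was called in the window.

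Erbb3 (chr10:128004579-128026708, minus strand) carried the TEAD site with the highest ratio of 7 d to 3 d among all 57 sites of these genes called at both times. It lay 17.1 kb upstream, was not called in WT, and had a pileup of 78 at 3 d and 185 at 7 d. A YAP peak at 7 d (chr10:128043627-128043985) overlapped it, with a pileup of 33, a 7.20-fold enrichment and rank 419 of 1478. Per 1e6 tags the TEAD pileup was 1.42 at 3 d and 4.80 at 7 d, a ratio of 3.39 (exact 95% interval 2.59 to 4.47). The interval was not adjusted for the site being the highest of the 57. The nearest annotated start was that of Gm9182, 8.62 kb from the YAP summit, and not that of Erbb3. At the Erbb3 promoter a TEAD peak about 0.95 kb upstream had a pileup of 59 at 3 d and 60 at 7 d, with none called in WT. A weaker promoter peak in an intron had a pileup of 24 at both times. The only WT peak of the window, with a pileup of 26, was nearest the start of Zc3h10 and not of Erbb3.

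Erbb4 (chr1:68078760-69154633, minus strand) is the longest of the 10 genes, with a window of 1120 kb, and all its peaks lay within its body. TEAD peaks numbered 1 in WT, 6 at 3 d and 10 at 7 d. At 7 d this was 0.896 per 100 kb, a density exceeding that of only 36.6% of genes. By number alone, 97.0% of genes had fewer. Of the 10 peaks at 7 d, 3 were in the top 10% of the list by pileup, and the weakest had a pileup of 20 and rank 36909 of 38984. Both YAP peaks were intronic. The first (chr1:68547999-68548404, 606 kb into the gene) had a YAP pileup of 34 and rank 376, and a TEAD pileup of 142 at 3 d and 158 at 7 d. The other (chr1:68827291-68827654, 327 kb into the gene) had a YAP pileup of 31 and rank 520, and a TEAD pileup of 130 at 3 d and 211 at 7 d. Neither had a TEAD peak in WT. The nearest annotated Erbb4 start was 171 kb from the first and 327 kb from the other. The single WT peak, 129 kb into the gene, had a pileup of 75 in WT, 93 at 3 d and 66 at 7 d, and no YAP peak was called there.

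Met (chr6:17413800-17523980, plus strand) had 1 TEAD peak in WT, 9 at 3 d and 13 at 7 d, mostly in introns. The strongest lay in an intron 22.1 kb from the start, with no peak called in WT and a pileup of 123 at 3 d and 126 at 7 d. Scaled to the tags of each list, its ratio of 7 d to 3 d was 1.46 (1.13 to 1.89). The Met YAP peak was at the same place (chr6:17435728-17436030), with a pileup of 36 and rank 301, the best of the 6 YAP peaks by pileup but not by −log10 p-value or fold enrichment, by which the first Erbb4 peak, at ranks 353 and 314, and the Erbb3 peak, at ranks 361 and 319, came before it. The YAP summit at 7 d lay 8 bp from the TEAD summit at 3 d and 34 bp from that at 7 d. By fold enrichment the Met YAP peak ranked 581, also behind the other Erbb4 peak at rank 402. The TEAD peak at 7 d ranked 4024 by fold enrichment in place of 1612. The WT peak lay in a coding exon 28.3 kb into the gene, with a pileup of 40, rank 2694 by pileup and 4191 by fold enrichment. At the promoter a TEAD peak was called only at 7 d, with a pileup of 17, which placed it among the weakest of the list (rank 38874 of 38984).

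**Figure D2:**
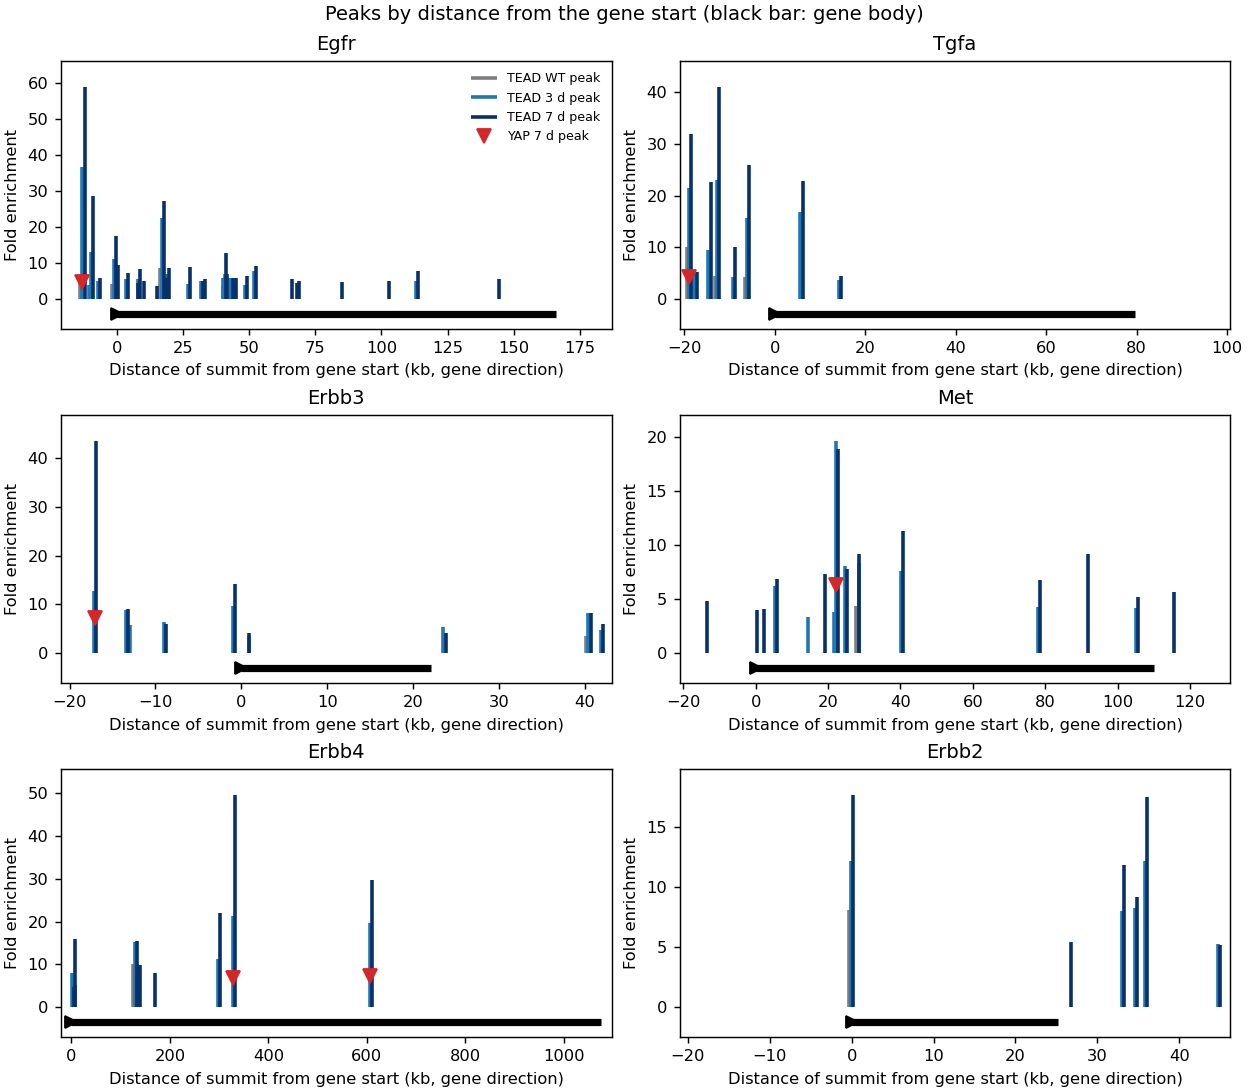
Fold enrichment of each TEAD peak (lines; grey WT, light blue 3 d, dark blue 7 d, drawn slightly side by side) and YAP peak at 7 d (red triangles) against the distance of its summit from the gene start in kb, for 6 genes, with the gene body as a black bar. The tallest lines lie upstream of Egfr, Tgfa and Erbb3 and inside Erbb4 and Met, and those of Egfr, Erbb3, Erbb4 and Met carry a YAP peak; the WT fold enrichment used longer fragments.

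Among the ligands, binding was split between Tgfa and Hbegf, which had TEAD peaks in every list, and Areg, Ereg and Btc, which had almost none. Tgfa (chr6:86145420-86225151, plus strand) had 3 TEAD peaks in WT, 8 at 3 d and 8 at 7 d. All 3 WT sites lay upstream, and 6 of the 8 sites at 7 d did. The strongest in WT lay 19.0 kb upstream, near the edge of the window, with a pileup of 82 in WT, 169 at 3 d and 177 at 7 d. Tgfa had its YAP peak there (chr6:86126339-86126719), with a pileup of 22 and rank 1330 of 1478. The strongest TEAD peak after induction was 12.7 kb upstream, with a pileup of 42 in WT, 197 at 3 d and 237 at 7 d. By pileup it ranked 255 of 36446 at 3 d and 140 of 38984 at 7 d, and by fold enrichment 691 and 433. No YAP peak was called there. At 7 d, 5 of the 8 Tgfa peaks were in the top 10% of the list, and none lay at the promoter.

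Hbegf (chr18:36664583-36675459, minus strand) had 1 TEAD peak in WT and 4 each at 3 d and 7 d, all upstream of the gene and without YAP. At the promoter, the pileup was 39 at 3 d and 41 at 7 d, with no peak called in WT. The other 3 were stronger, with a pileup of up to 93 at 3 d and 109 at 7 d, but were nearer the start of Slc4a9, of the bicarbonate transporter family, than that of Hbegf.

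Areg, Ereg and Btc lie together on chromosome 5, and no peak of any kind was called in the windows of Areg (chr5:91568641-91577458) and Ereg (chr5:91503643-91522675). In the Btc window (chr5:91786287-91831939, minus strand) the only peak was a TEAD peak at 3 d, 397 bp upstream of the start and in an intron of the pseudogene Gm15710, with a pileup of 31 and rank 23277 of 36446. In all, 3 of the 6 genes with windows of up to 100 kb had no TEAD peak at 7 d, against 36.3% of all such genes. The stretch around the windows was not empty. Between 20 kb before Ereg and 20 kb after Btc, a length of 368 kb, there were 1, 8 and 6 TEAD peaks in WT, at 3 d and at 7 d. At 7 d the list held 1.47 TEAD peaks per 100 kb of genome.

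The strongest peak of that stretch lay between Areg and Btc, outside both windows, 64.8 kb from the start of Areg (chr5:91633068-91634030 at 7 d). Its TEAD pileup was 75 in WT, 189 at 3 d and 178 at 7 d, and it ranked 408, 298 and 544 in the respective lists. Scaled to the tags of each list, this TEAD peak was higher at 7 d than at 3 d. A YAP peak at 7 d (chr5:91633266-91633707, pileup 34, rank 376) overlapped it. On the other side of Ereg, a pair of TEAD peaks at 3 d and 7 d lay nearest the start of Epgn. Epgn encodes another EGFR ligand. The peak nearer to Ereg lay 35.8 kb from the start of Ereg, with a pileup of 105 at 3 d and 97 at 7 d. Scaled to tags, that peak was also higher at 7 d than at 3 d. This stretch was examined after the windows had been found empty.

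**Figure D3:**
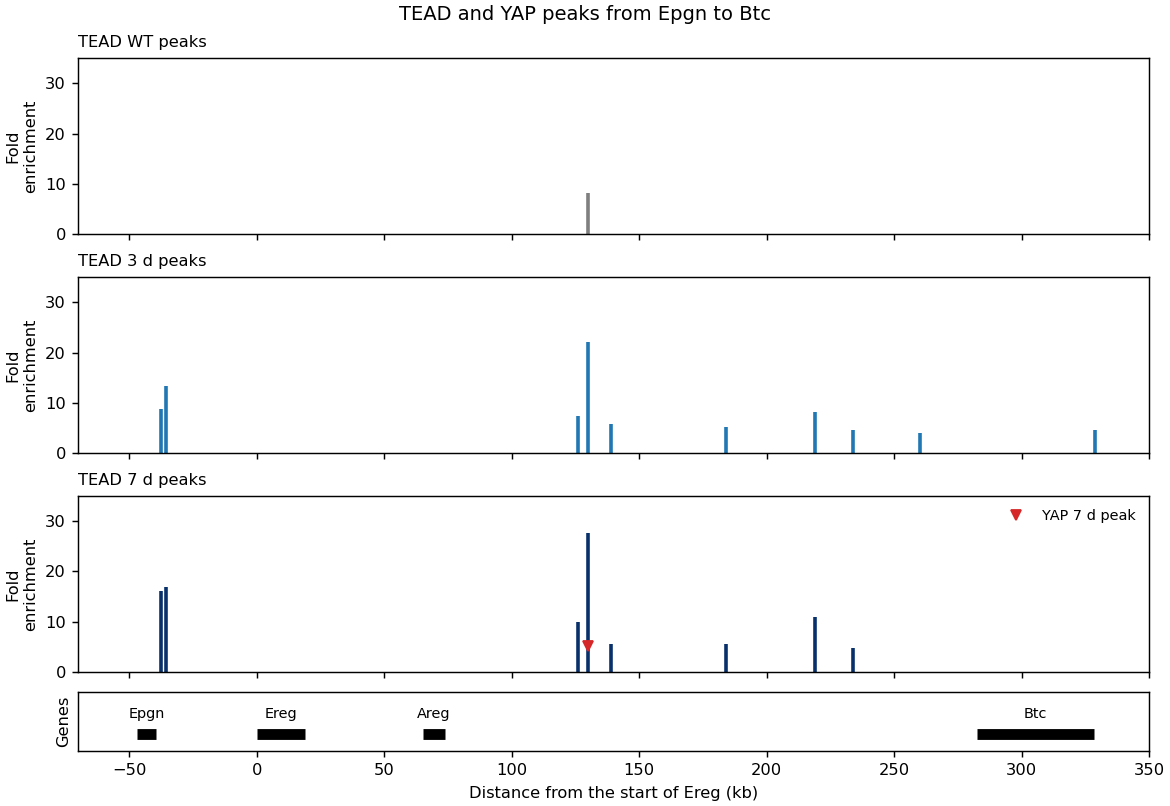
Fold enrichment of TEAD peaks (vertical lines, 1 panel per list) and of YAP peaks at 7 d (red triangle) against distance from the start of Ereg in kb, with the EGF ligand genes of the stretch as black bars below. No line stands over Ereg or Areg in any panel, and the tallest line, 130 kb from the start of Ereg, carries the only YAP peak.

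At the promoters of the 10 genes, TEAD peaks were called at 2 in WT (Egfr and Erbb2), 5 at 3 d (Egfr, Erbb2, Erbb3, Btc and Hbegf) and 5 at 7 d (Egfr, Erbb2, Erbb3, Met and Hbegf). Over all protein-coding genes the shares were 8.73%, 38.8% and 37.6%. The Egfr promoter held a peak about 0.9 kb upstream with a pileup of 32 in WT, 69 at 3 d and 84 at 7 d. A nearer one, 85 bp upstream at 3 d and 128 bp at 7 d, had a pileup of 41 and 40. The strongest sites of Egfr, Erbb3, Erbb4, Met and Tgfa at 7 d lay outside promoters.

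The 6 YAP peaks could be grouped by whether TEAD was called there in WT, a grouping that was not among the planned results. The WT list held 5695 peaks, called with longer fragments, against 38984 at 7 d. A site without a WT call may thus still have been bound in WT. All 6 lay at a TEAD peak of both 3 d and 7 d. At Egfr and Tgfa the TEAD peak was also called in WT, and these YAP peaks had pileups of 21 and 22 and ranks of 1390 and 1330. At Erbb3, Erbb4 and Met no TEAD peak was called in WT, and the 4 YAP peaks had pileups of 31 to 36 and ranks of 301 to 520. The order of the TEAD peaks was different, with Egfr at the top 0.259% of the TEAD list at 7 d and Met at the top 4.14%. Tissue for YAP was fixed with DSG followed by formaldehyde, and tissue for TEAD only with formaldehyde, so the pileups of YAP and TEAD were not compared with each other.

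**Figure D4:**
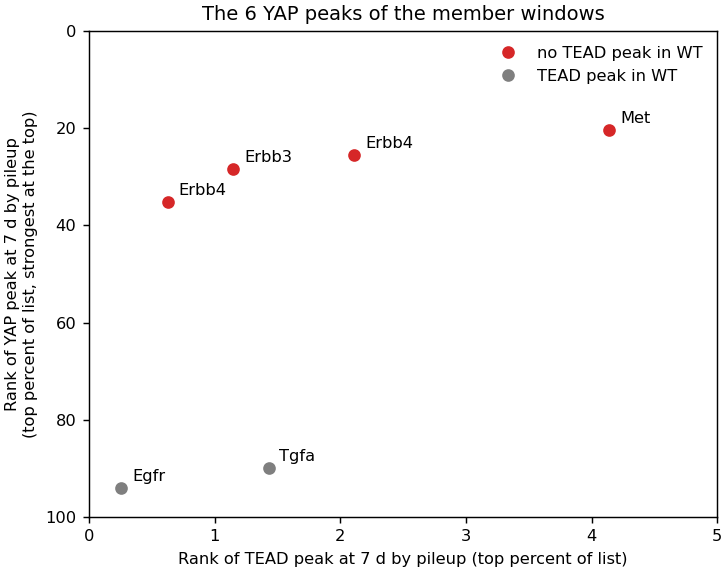
Rank by pileup, as top percent of the list, of the TEAD peak at 7 d (x axis) and of the YAP peak at 7 d (y axis, strongest at the top) at each of the 6 YAP peaks; grey points had a TEAD peak in WT and red points had none. Egfr is at the top 0.259% for TEAD and the top 94.0% for YAP, and the 4 red points lie above both grey points.

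The TEAD peaks of these genes at 7 d were set against the whole list by the other peaks they overlapped. At a YAP peak of 7 d were 6 of the 78 TEAD peaks at 7 d, or 7.69% (Wilson 95% interval 3.57% to 15.8%), against 3.58% of the list, which lies at the lower edge of the interval. The shares were not matched for peak strength. Of the 78 peaks 19.2% were in the top 10% by pileup, against 10.1% of the list. At a TEAD peak of WT were 12 of 78, or 15.4% (9.03% to 25%), against 14.1%. At a TEAD peak of 3 d were 57 of 78, or 73.1% (62.3% to 81.7%), against 71.2%. After overlapping peaks of the 3 lists were joined, the windows held 81 TEAD sites. Of these, 12 were called in all 3 lists (14.8%, against 11.4% of all sites) and 44 at 3 d and 7 d (54.3%, against 46.1%). At 7 d only there were 21 (25.9%, against 23.7%) and at 3 d only 4 (4.94%, against 18.2%). All 12 WT sites of these genes were called in both induced lists, and of all 5655 WT sites 5.11% were not.

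The 3 d and 7 d lists had nearly equal fragment lengths, so pileups per 1e6 tags were compared at the 57 peaks of 7 d that overlapped a peak of 3 d. The median ratio of 7 d to 3 d was 1.39 (quartiles 1.11 and 1.59), against 1.33 (1.10 and 1.62) over all 27753 such peaks. At least 1.5-fold higher at 7 d were 19 of 57, or 33.3%, against 33.6%, and at least 1.5-fold lower was 1 of 57, against 1.47%. That single lower value, 0.230 in an Egfr intron, belonged to 1 of a pair of 7 d peaks that overlapped the same wide peak of 3 d. The other of the pair, at the summit of the 3 d peak, had a ratio of 1.21 (0.949 to 1.53). With 1 value per chain of overlapping peaks, an alternative added after the data had been seen, none of 56 was 1.5-fold lower and the median was 1.41. The quartiles over these genes and over the whole list overlapped over most of their range.

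Among the genes, median ratios were 1.18 at Erbb3, 1.21 at Met, 1.26 at Egfr, 1.39 at Erbb2, 1.52 at Hbegf, 1.61 at Tgfa and 1.76 at Erbb4. All 8 Tgfa peaks, all 6 of Erbb4 and all 4 of Hbegf were above 1, as were 50 of the 57 peaks of these genes (87.7%) and 83.8% of the whole list. At Erbb3 5 of 8 were above 1, and its median lay far below the 3.39 of its YAP site. At the other YAP sites the ratio was 2.32 (1.85 to 2.91) and 1.59 (1.26 to 2.01) at Erbb4, 1.60 (1.33 to 1.93) at Egfr, 1.5 (1.20 to 1.86) at Tgfa and 1.46 (1.13 to 1.89) at Met. Each of these intervals lay above 1, as did 22 of the 57 intervals (38.6%, against 32.0% of all). The whole-list median of 1.33 lay below the intervals of the Erbb3 site and of the Erbb4 site with 2.32. It lay within those at Met, Tgfa and the other Erbb4 site, and at the lower edge of the Egfr interval. The Tgfa site without YAP had a ratio of 1.72 (1.42 to 2.09), within the range of the YAP sites.

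**Figure D5:**
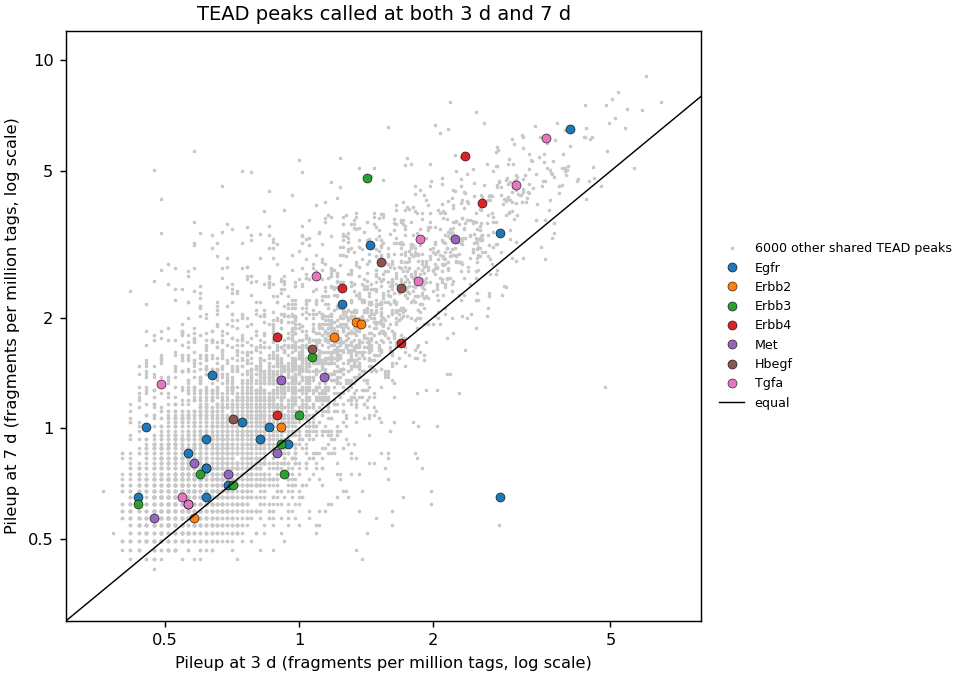
TEAD pileup per 1e6 tags at 7 d against 3 d on log axes at the 57 peaks of these genes called at both times (coloured by gene) and at a sample of other such peaks (grey), with the line of equality. Most coloured points lie above the line within the grey cloud, Erbb3 has the point farthest above it at 1.42 and 4.80, and the Egfr point far below it is the one that shares a wide 3 d peak with a stronger neighbour.

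Other genes of the pathway were examined in the same windows, from a list of 42 genes, also chosen with earlier results known. A TEAD peak was called at 19 of them in WT, 40 at 3 d and 40 at 7 d, against 25.4%, 65.2% and 66.5% of all protein-coding genes. More TEAD peaks at 7 d than in WT were called at 37, against 63.5%. A TEAD peak at 7 d was called at 18 of the 19 pathway genes with windows over 100 kb, against 79.0% of all genes with such windows, and at 22 of the 23 with shorter ones, against 63.7%. Of the 18 adaptors and effectors, which pass the signal from the receptor to RAS, PI3K and STAT3, all had a TEAD peak at 3 d and 7 d and 8 in WT. Of the 9 feedback inhibitors and receptor ubiquitin ligases, 8 had one in WT and all 9 at 3 d and 7 d. Of the 7 genes for ligand processing, such as sheddases, 6 had one at 7 d. St14, which encodes the protease matriptase, had none in any TEAD list.

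YAP peaks at 7 d were called at 4 of the 42 pathway genes, or 9.52%, against 6.33% of all genes. In WT and at 3 d none was called, against 0.139% and 0.192%. With windows over 100 kb it was 1 of 19, against 12.4%, and with shorter windows 3 of 23, against 4.98%. Each of the 4 lay at a TEAD peak of all 3 lists. At Shc1, which encodes an adaptor that binds activated receptors, the peak lay in an intron 1.28 kb from the start, with a YAP pileup of 37 (rank 269) and a TEAD pileup of 87 in WT, 168 at 3 d and 184 at 7 d. At Nrg1, a ligand of ERBB3 and ERBB4, it lay 18.1 kb upstream, with a YAP pileup of 27 (rank 839) and a TEAD pileup of 59, 71 and 124. At Dusp6, which encodes a phosphatase of ERK, it lay 84 bp upstream, with a YAP pileup of 23 (rank 1249) and a TEAD pileup of 61, 88 and 102. At Errfi1, an inhibitor of EGFR, it lay 17.8 kb beyond the start, with a YAP pileup of 19, rank 1462 of 1478, and a TEAD pileup of 40, 76 and 83. Among the other ligands, Nrg4 had 9 and Nrg1 had 8 TEAD peaks at 7 d, Egf had 2 and Hgf, the ligand of MET, had none, with 1 at 3 d. The Shc1 peak had a TEAD peak in WT and a higher YAP pileup than any of the 6 YAP peaks of the receptor and ligand windows. The lower YAP pileups of Egfr and Tgfa thus did not extend to every pathway site with TEAD in WT. At Nrg1, Dusp6 and Errfi1 the YAP pileups of 27, 23 and 19 were below the 31 to 36 at Erbb3, Erbb4 and Met.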

How the data were processed

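YAP and TEAD ChIP-seq peaks of liver were analysed as deposited. The 10 genes and the gene lists were chosen with earlier results of these data known. The authors masked low-quality bases, aligned reads to mm9 with BWA 0.6.2 (version per the submitters' processing notes), pooled the replicates within groups and discarded duplicates. The peak caller was MACS 2.0.9 with a p-value limit of 1e-05 per the file headers, and according to the study's methods the control came from published data. The deposited pileup is a signal in fragments. The deposited fold enrichment is a ratio to the local background. The deposited −log10 p-values were used to rank and filter peaks, and the −log10 q-values were not used.

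Groups followed the labels. Peaks overlapping a window by at least 1 bp were counted and ranked by pileup within their list. The peaks named were all YAP peaks, the highest TEAD peak of each gene and list, and promoter peaks, with others given for contrast. Coordinates fitted the 21 chromosomes of NCBIM37, with no peak end beyond a chromosome. Shares carry Wilson intervals and pileup ratios exact conditional binomial intervals (95%), which cover counting error only. Motifs were searched on both strands within 100 bp of summits. Overlaps and intervals were checked on simulated data. Python 3.11.15, pandas 2.3.3, SciPy 1.17.1 and pysam 0.24.0 were used. No test between conditions was made. Other windows, thresholds, ranks, overlaps and motif lengths were tried.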

Additional observations from a re-analysis of the deposited data

How the results depend on the processing

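No paired analysis was possible because each deposited list stands for the merged replicates of a group, and for the same reason no replicate could be left out. With windows of 5 kb, YAP peaks at 7 d numbered 3 at 2 genes, TEAD peaks in WT 6 at 4 genes and TEAD peaks at 3 d 39. With a −log10 p-value of at least 10, 3 genes had a YAP peak at 7 d. With a fold enrichment of at least 5, 3 genes had a YAP peak at 7 d, TEAD peaks in WT numbered 5 at 4 genes, and 7.81% of TEAD peaks at 7 d were at a WT peak. With the strongest 5695 peaks of each TEAD list, 18 TEAD peaks were left at 3 d and 18 at 7 d. Under the remaining alternatives, 28 numbers of genes with a peak and 27 numbers of peaks stayed within 1.5 times of the value reported. Part of these could not have moved. They include the YAP values of 0 in WT and at 3 d, which narrower windows or stricter limits cannot raise. They also include the WT values for the strongest 5695 TEAD peaks, which are the whole WT list. The share at YAP peaks was 7.69% as reported and went down to 5.13% with summits at most 100 bp apart and to 5.36% with windows of 5 kb. Under the alternatives the share at 3 d peaks ranged from 64.3% to 79.4%, the motif share from 33.3% to 48.7% and the median ratio from 1.37 to 1.43. Of 54 ranks recomputed by p-value or fold enrichment, 7 moved by over 1.5 times, all by fold enrichment. They were those given beside Egfr, Met and Tgfa, and the Hbegf peak in WT at rank 1909, which became 3161. The Egfr and Tgfa YAP peaks, with pileups of 21 and 22, are the ones that a limit on p or fold enrichment removed.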
